A study of Mus musculus with 10 samples.

Results

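The LDL receptor family was followed through the cortex RNA of amyloid mice with and without neuronal deletion of Idol. Its members were chosen by name: the receptors Vldlr, Lrp8, Lrp1, Lrp1b, Lrp4 and Lrp6, the sorting receptor Sorl1, and Lrpap1, the chaperone of the family. These are 8 of the 53700 gene identifiers counted, and all 8 were among the 19268 genes with more than 10 reads in total that were tested. Cortex of 10 female mice aged 4 months was measured by QuantSeq, which reads the 3′ end of each polyadenylated transcript. All 10 mice carried the 5XFAD transgenes, which are driven by the neuronal Thy1 promoter and lead to amyloid deposits. In 5 mice, labelled Camk2a-cre cKO and called 5XFAD;Neu cKO, floxed Idol (Mylip) was deleted by Camk2a-Cre, which is active in excitatory forebrain neurons. The other 5 mice, labelled Camk2a-cre WT, are called 5XFAD. Glia and inhibitory neurons keep Idol in such mice, and a tissue library mixes all of these cells.

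Most receptors of this family bind lipoproteins and other ligands outside the cell, carry them to endosomes and return to the surface. They do so by a cytoplasmic tail that holds NPxY sorting motifs. IDOL is a ubiquitin ligase that binds the tail of some of them and sends the receptor protein to lysosomes, so that its action is on protein and not on mRNA. In brain, VLDLR and LRP8 (also called APOER2) receive Reelin and APOE, LRP1 clears APOE and amyloid-β, LRP4 and LRP6 serve agrin and Wnt signalling, and SORL1 steers APP through endosomes. The comparison asks whether the mRNA of these receptors differed where neurons lack IDOL.

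The tail stretch that ends in the NPxY motif is shown for Vldlr, Lrp8 and Lrp4, because the first and second carry the motif that the FERM domain of IDOL recognises and the last, the next most similar, does not. The stretches were read on the sense strand of canonical transcripts in GRCm39, each 51 bases or 17 codons long. Capitals mark the codons of NPxY and, in Vldlr and Lrp8, the 6 fixed codons of the IDOL-recognised motif.
Vldlr, exon 17 of 18, chr19:27225301-27225351, plus strand: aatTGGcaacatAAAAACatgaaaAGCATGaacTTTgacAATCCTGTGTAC
Lrp8, exon 17 of 19, chr4:107726219-107726269, plus strand: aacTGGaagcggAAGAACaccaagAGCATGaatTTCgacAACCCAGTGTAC
Lrp4, exon 37 of 38, chr2:91338827-91338877, plus strand: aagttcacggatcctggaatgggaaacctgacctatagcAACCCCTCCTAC
Lrp8 shared 38 of the 51 bases with Vldlr (74.5%), and Lrp4 shared 25 (49.0%). The stretches of Lrp1 shared 41.2% and 47.1% and those of Lrp1b 37.3% and 33.3%. The IDOL-recognised motif was found in 3 of the 21770 canonical coding sequences searched (0.0138%), and 2 of these were members, Vldlr and Lrp8. Both were listed as known IDOL targets, so their match was set by the choice of members and is no finding of enrichment. The predicted tails of Lrp6 and Sorl1 held no NPxY, and Lrpap1, a soluble protein of the endoplasmic reticulum, has no such tail. These matches describe the letters of the sequences and no binding was measured.

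The libraries held 4320504 to 7466192 reads on genes, with a median of 5489735, and levels are given as CPM, the counts scaled to a common library size (TMM). A read is counted once per transcript end whatever the length of the transcript, and CPM of different genes are set side by side on that basis. An opposite-strand gene overlaps the last 1000 bases of Vldlr (Gm50114) and of Sorl1 (Gm69934). Its effect on their counts was not tested. Markers of excitatory neurons summed to 2015 to 2483 CPM in 5XFAD and 1996 to 2282 in 5XFAD;Neu cKO, and no marker of the 9 cell type and region lists was at 0 throughout. Markers of microglia summed to 291 to 421 CPM in 5XFAD and 231 to 268 in 5XFAD;Neu cKO, without overlap. Of the 8 microglia markers, 8 lay lower and 3 passed the test (C1qb, Csf1r and Cx3cr1), where 0.218% of all genes tested passed in either direction. Of the 6 astrocyte markers, 5 lay lower and 1, Gfap, passed. All 6 oligodendrocyte markers lay lower and 0 passed.

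Mylip (ENSMUSG00000038175, chromosome 13, 45543215 to 45565501), which encodes IDOL, was examined first because it was the gene deleted. Its level was 9.69, 12.4, 14.7, 9.32 and 10.1 CPM in 5XFAD replicates 1 to 5 and 14.4, 14.3, 19.4, 18.9 and 7.18 CPM in 5XFAD;Neu cKO replicates 1 to 5. The libraries labelled cKO were thus not lower as a group: 4 of 5 lay above the 5XFAD median and replicate 5 was the lowest of all 10. The fitted log2 fold change of 5XFAD;Neu cKO over 5XFAD was 0.39 ± 0.25 (SE), with an adjusted p = 0.777 (quasi-likelihood test of edgeR, adjusted over all genes tested by the method of Benjamini and Hochberg). Reads at the 3′ end do not show whether the floxed part was present, and cells outside the Cre line keep the gene. The groups below are therefore those of the labels, which these reads do not check.

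Over all 10 libraries Sorl1 was the most abundant member, at 372 ± 42.1 CPM (SD, n = 10), which placed it above 98.8% of the genes tested. Lrp1 followed at 154 ± 14.6 CPM, then Vldlr at 120.4 ± 10.8, Lrp1b at 118 ± 15.4, Lrpap1 at 101 ± 12.5 and Lrp8 at 77.0 ± 11.9 CPM. Lrp6 stood at 30.2 ± 3.37 CPM and Lrp4 at 10.1 ± 3.21 CPM. Sorl1 lay above Lrp1, Lrp8 above Lrp6, and Lrp6 above Lrp4 with no overlap of their ranges over libraries. Vldlr and Lrp1b could not be ordered, since Vldlr was the higher in 5 of 10 libraries. The ranges of the other neighbours overlapped, although the gene with the higher mean was higher in 10 of 10 libraries. The spread between libraries exceeded counting error: for Vldlr the coefficient of variation was 9.01%, against 3.8% from counting alone, and for Sorl1 11.3% against 2.15%. Lrp4 rested on 30 to 126 reads per library and had the widest spread of the members, at 31.8%.

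Vldlr (ENSMUSG00000024924, chromosome 19, 27193862 to 27231631), a receptor for Reelin and APOE, did not differ detectably between the groups. It stood at 123, 129, 109.9, 111 and 123 CPM in the 5XFAD libraries and at 138, 123, 120.0, 126 and 100.3 CPM in the 5XFAD;Neu cKO libraries. The highest and the lowest of all 10 values were both in 5XFAD;Neu cKO, so that the 5XFAD range lay inside the other. The means were 119 ± 8.46 and 122 ± 13.8 CPM (SD, n = 5 each), and the fold was 1.02 with a 95% interval of 0.890 to 1.17 (adjusted p = 0.984).

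Lrp8 (ENSMUSG00000028613, chromosome 4, 107659066 to 107734038), the other receptor with the IDOL-recognised tail, was lower in most 5XFAD;Neu cKO libraries, but did not pass the test across all genes. The 5XFAD libraries held 85.5, 82.8, 94.55, 71.6 and 92.2 CPM and the 5XFAD;Neu cKO libraries 68.4, 59.2, 73.4, 78.9 and 63.1 CPM. All 5 of the latter lay below the 5XFAD median, and 4 of 5 5XFAD libraries lay above every 5XFAD;Neu cKO library. The groups overlapped only through 5XFAD replicate 4. The means were 85.3 ± 9.06 and 68.6 ± 7.87 CPM, a fold of 0.804 with a 95% interval of 0.688 to 0.940 and a log2 fold change of -0.31 ± 0.11 (SE). The unadjusted p was 0.00702 and the adjusted p 0.402 (edgeR), and an exact two-sided permutation test of mean log2 CPM gave p = 0.0238, where the smallest p that relabelling 5 against 5 libraries can give is 0.00794. In bulk tissue, fewer cells that express a gene and less of its RNA per cell cannot be told apart.

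**Figure D1:**
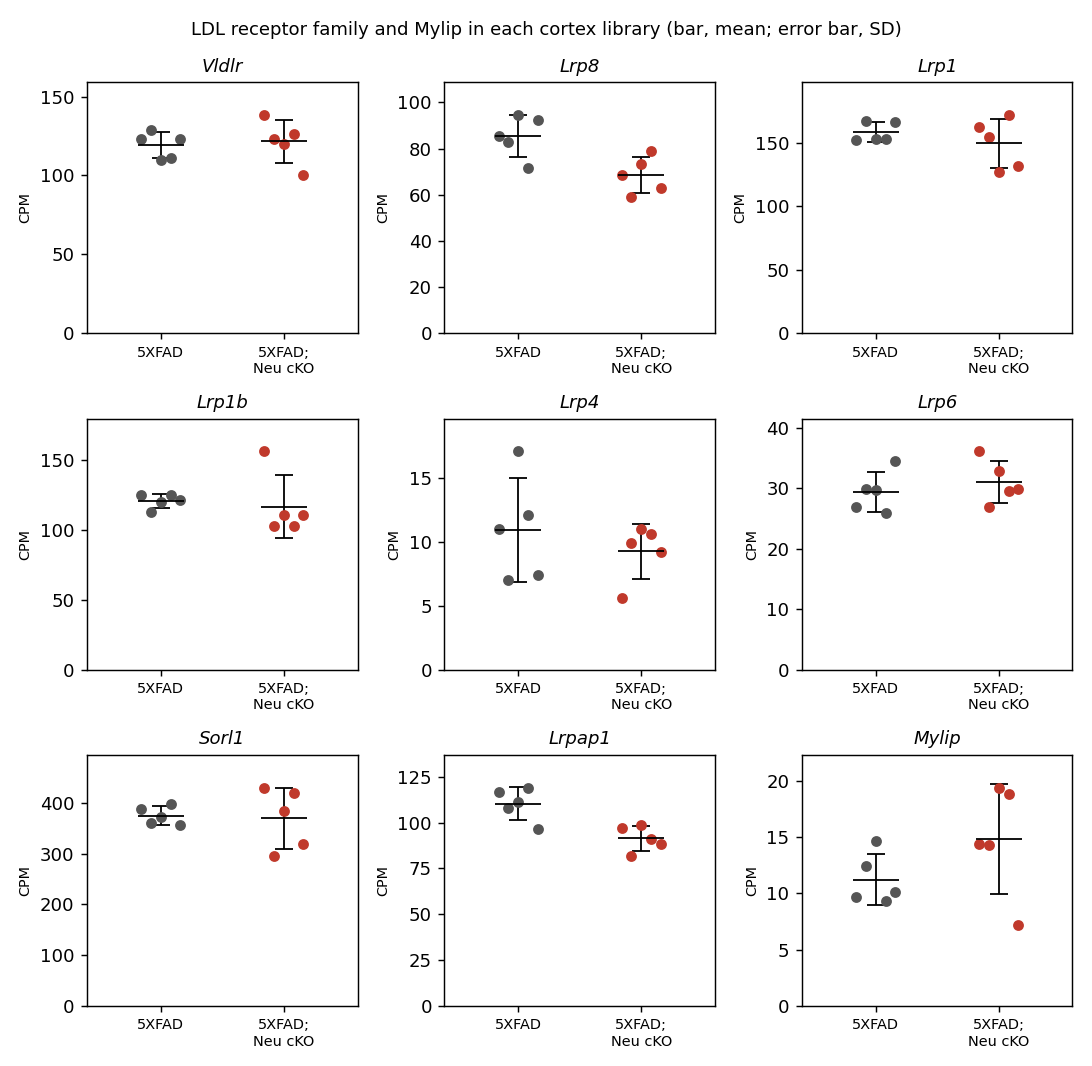
Level of each family member and of Mylip in every cortex library, in CPM on axes from 0, with 5XFAD in grey and 5XFAD;Neu cKO in red. Points are libraries, horizontal bars are means and error bars the SD of 5 libraries. Lrp8 and Lrpap1 have 3 red points each below every grey point, Lrp1b has 4 below and 1 above every grey point, and no member has groups that do not overlap.

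Set against each other within a library, Lrp8 was lower relative to Vldlr in every 5XFAD;Neu cKO library than in any 5XFAD library. For every Vldlr read, the 5XFAD libraries held 0.693, 0.642, 0.86, 0.645 and 0.747 Lrp8 reads and the 5XFAD;Neu cKO libraries 0.495, 0.481, 0.612, 0.626 and 0.629. The mean ratio was 0.718 ± 0.0906 and 0.568 ± 0.0742, a log2 difference of -0.338 that ranged from -0.377 to -0.27 when any 1 library was left out. This ratio was formed after the values of both genes had been seen, so no test is attached to it. The ratio to Vldlr lay wholly below the 5XFAD range in this way for 1.1% of the 8840 other genes with a mean of at least 10 CPM.

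**Figure D2:**
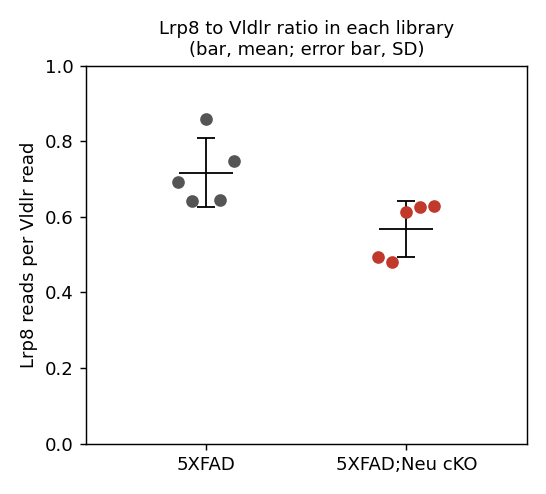
Reads of Lrp8 for every read of Vldlr in each library, on an axis from 0. Points are libraries, horizontal bars the mean and error bars the SD. The 5XFAD libraries lie between 0.642 and 0.86 and the 5XFAD;Neu cKO libraries between 0.481 and 0.629.

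The large endocytic receptors did not differ detectably. Lrp1 (ENSMUSG00000040249, chromosome 10, 127374012 to 127457017), which takes up APOE and other ligands in neurons and glia, stood at 152, 167, 153, 153 and 166 CPM in 5XFAD and at 162, 154, 127, 172 and 132 CPM in 5XFAD;Neu cKO. The 5XFAD;Neu cKO libraries were spread to both sides of the 5XFAD range, and the fold was 0.944 with a 95% interval of 0.829 to 1.07 (adjusted p = 0.922, edgeR). Lrp1b (ENSMUSG00000049252, chromosome 2, 40485258 to 42543636), its close relative, stood at 125, 112, 119.9, 125 and 121 CPM in 5XFAD and at 156, 102.8, 110.5, 102.8 and 110.3 CPM in 5XFAD;Neu cKO. Here 4 of the 5XFAD;Neu cKO libraries lay below every 5XFAD library and replicate 1 lay above them all. The fold of Lrp1b was 0.966, with a 95% interval of 0.837 to 1.11 (adjusted p = 0.969).

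Lrp4 (ENSMUSG00000027253, chromosome 2, 91287797 to 91344248), the agrin receptor, was low and variable. It stood at 11.1, 7.04, 17.1, 12.1 and 7.41 CPM in 5XFAD and at 5.61, 9.93, 11.03, 10.6 and 9.19 CPM in 5XFAD;Neu cKO. The ranges overlapped, and the 95% interval of the fold ran from 0.571 to 1.24, with an adjusted p = 0.917 (edgeR). Lrp6 (ENSMUSG00000030201, chromosome 6, 134423439 to 134544212), a Wnt co-receptor, stood at 26.9, 29.8, 29.6, 25.9 and 34.6 CPM in 5XFAD and at 36.1, 26.9, 32.8, 29.4 and 29.9 CPM in 5XFAD;Neu cKO. These ranges overlapped almost completely, with a fold of 1.06 and a 95% interval of 0.853 to 1.31 (adjusted p = 0.966).

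Sorl1 (ENSMUSG00000049313, chromosome 9, 41876012 to 42035656), a sorting receptor of APP and a risk gene for Alzheimer's disease, had close means and a wider scatter in 5XFAD;Neu cKO. It stood at 389, 360, 372, 398 and 356 CPM in 5XFAD and at 430, 296, 383, 420 and 319 CPM in 5XFAD;Neu cKO. Of the 5XFAD;Neu cKO libraries, 2 lay below the whole 5XFAD range and 2 above it. The coefficient of variation was 4.85% and 16.3%. It was also higher in 5XFAD;Neu cKO for Lrp1b (4.28% and 19.2%), Lrp1 (4.9% and 12.9%), Vldlr (7.09% and 11.3%) and, slightly, Lrp8 (10.6% and 11.5%). It was lower for Lrp4 (37.5% and 23.3%) and Lrpap1 (8.1% and 7.44%), and 11.4% in both groups for Lrp6. The spreads were not compared by a test. The fold was 0.985 with a 95% interval of 0.875 to 1.11 (adjusted p = 0.986, edgeR).

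Lrpap1 (ENSMUSG00000029103, chromosome 5, 35248837 to 35263892) encodes RAP, which keeps ligands off newly made receptors of the family in the endoplasmic reticulum. It stood at 117, 108, 111, 119 and 96.5 CPM in 5XFAD and at 96.8, 81.8, 98.7, 91.0 and 88.2 CPM in 5XFAD;Neu cKO. All 5 of the latter lay below the 5XFAD median, 4 of 5 5XFAD libraries lay above every 5XFAD;Neu cKO library, and the groups overlapped only through 5XFAD replicate 5. The means were 110.3 ± 8.93 and 91.3 ± 6.80 CPM, a fold of 0.828 with a 95% interval of 0.720 to 0.952 and a log2 fold change of -0.27 ± 0.10 (SE). The unadjusted p was 0.00876 and the adjusted p 0.436 (edgeR), with p = 0.0238 in the exact permutation test. Lrpap1 and Lrp8 thus both lay lower as groups without passing the test. The summed microglia markers lay lower in the same libraries, at 231 to 268 CPM against 291 to 421, and their part in the level of Lrpap1 was not tested.

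Across the family, 0 of 8 members passed the adjusted threshold of 0.05 in edgeR or in any alternative fit, DESeq2 included, where 0.218% of all genes tested passed in the edgeR fit (11 higher and 31 lower). At an unadjusted p under 0.05 there were 2 of 8, Lrp8 and Lrpap1, where 7.95% of all genes tested stood. No member had groups that did not overlap, a pattern found in 0.576% of all genes with 5XFAD;Neu cKO higher and in 0.721% with it lower. The log2 fold change was negative for 6 members and positive for 2, with a median of -0.067, beside a median of -0.00056 and 50.1% negative over all genes tested.

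**Figure D3:**
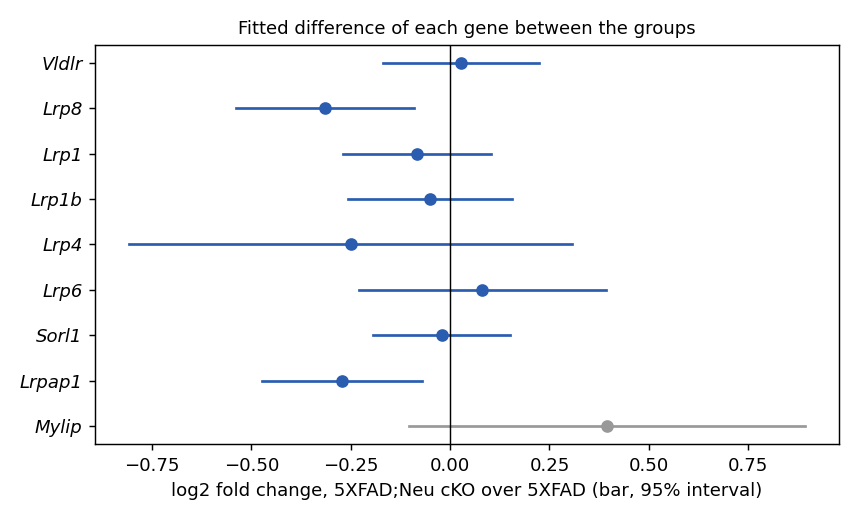
Fitted log2 fold change of each family member and, in light grey, Mylip, with points for the estimate and lines for the 95% interval. The intervals of Lrp8 and Lrpap1 lie below 0 before adjustment over all genes, and the others include 0.

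Genes that act with the family were followed as 5 lists, of which 0 of 58 genes passed in edgeR. An unadjusted p under 0.05 (edgeR) was found for 7 of the 58, where 7.95% of all genes tested had one. The ligands lay mostly lower, 8 of 10 with a median log2 fold change of -0.104, against -0.00056 over all genes tested. Apoe, the main lipoprotein of brain and a ligand of Vldlr, Lrp8 and Lrp1, stood at 1216, 1455, 1149, 1174 and 1117 CPM in 5XFAD and at 1040, 941, 1096, 993 and 1008 CPM in 5XFAD;Neu cKO. Its groups did not overlap. The log2 fold change was -0.27 ± 0.07 (SE), and the adjusted p of 0.0997 (edgeR) missed the threshold, while DESeq2 gave 0.0189 and called it, and the adjusted p ran from 0.0189 to 0.477 over the alternatives, the highest without 5XFAD replicate 2. Apoe is made by astrocytes and activated microglia. The microglia markers given above lay lower as well, and so did Gfap. The summed astrocyte markers overlapped, at 3426 to 4043 CPM in 5XFAD and 3322 to 3838 in 5XFAD;Neu cKO. Most of that sum is Slc1a2, at a mean of 2962 CPM over all 10 libraries, so it says little of the other astrocyte markers. Of the 6 astrocyte markers, 5 lay lower and 1 higher, with a median log2 fold change of -0.188. The part of either cell type in the level of Apoe was not tested. Serpine2, a protease inhibitor taken up by Lrp1, stood at 162 to 225 CPM in 5XFAD and 139 to 192 in 5XFAD;Neu cKO, with overlap and an adjusted p of 0.436 (edgeR).

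Among 8 further LDL receptor-related genes the median was 0.0373, with 5 higher and 3 lower. Lrp2, the endocytic receptor megalin, was counted 0 times in all 5 5XFAD libraries and in 5XFAD;Neu cKO replicates 1 to 3, 2 times in replicate 4 and 11 times in replicate 5. Against a floor of 3 counts over the 5XFAD group, the 13 counts of 5XFAD;Neu cKO stood 3.92-fold higher, and its adjusted p was 0.543 (edgeR). The value at the floor takes no account of the spread between mice. It rests on replicate 5, since the 2 counts left without that library are under the floor. The list's median is the same with Lrp2 at this value. Replicate 5 also had the highest sum of choroid plexus markers, 140.5 CPM against 12.96 to 71.2 CPM in the other libraries. Ttr alone made up 132.9 CPM of it, so the sum says little of the other markers of that list. The part of choroid plexus tissue in the Lrp2 count was not tested. Lrp3 stood at 15.2 to 28.5 CPM in 5XFAD and 19.1 to 27.7 in 5XFAD;Neu cKO, with overlap and an adjusted p of 0.771.

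The 4 VPS10 domain relatives of Sorl1 had a median of 0.00709. The smallest p among them was that of Sort1, the neuronal sortilin, at 189 ± 14.4 and 172 ± 11.5 CPM (adjusted p = 0.778, edgeR), followed by Sorcs2 at 23.4 ± 4.24 and 28.2 ± 7.67 CPM (adjusted p = 0.825). Among the 20 adaptors, chaperones and sorting proteins the median was -0.0145. Vps26b, a retromer subunit, stood at 33.0 ± 5.61 and 41.6 ± 3.13 CPM (adjusted p = 0.534), and Mesd, the chaperone of Lrp5 and Lrp6, at 60.1 ± 9.15 and 49.8 ± 8.49 CPM (adjusted p = 0.606). The 16 Wnt and agrin partners of Lrp4 and Lrp6 had 12 genes above 0 and 4 below, with a median of 0.195, further from that of all genes tested than the median of any other of the 5 lists, and 0 had an unadjusted p under 0.05. Of these, Kremen1, which removes Lrp6 from the surface with Dkk, stood at 5.85 ± 1.79 and 9.32 ± 5.61 CPM (adjusted p = 0.651) and Dvl2, a transducer of Frizzled, at 7.85 ± 3.34 and 10.9 ± 2.54 CPM (adjusted p = 0.778).

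**Figure D4:**
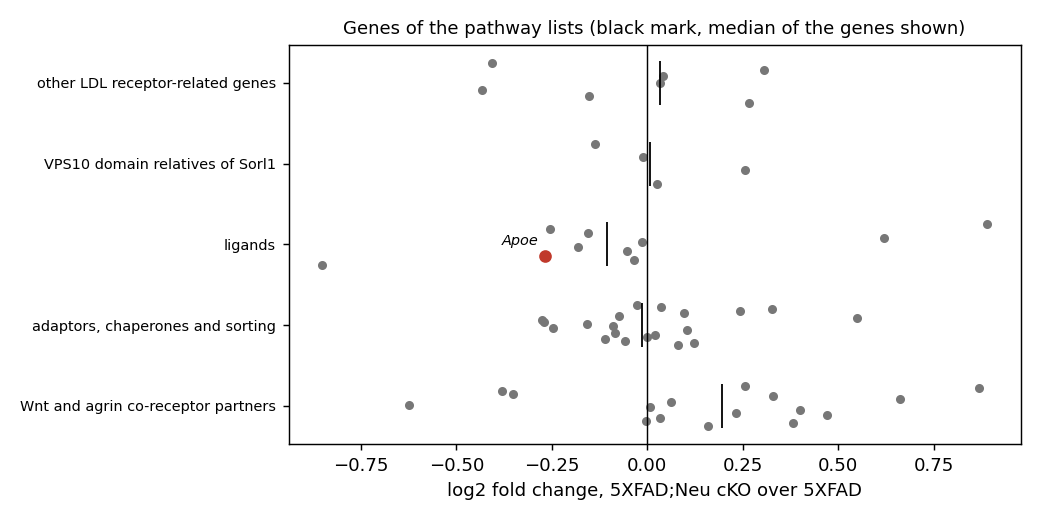
Log2 fold change of each gene of the 5 lists, 5XFAD;Neu cKO over 5XFAD, leaving out Lrp2, whose 5XFAD libraries were all at 0. Grey points are genes, black marks the medians of the genes shown, and the red point is Apoe, whose groups did not overlap. The Apoe point lies at -0.27.

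The genes whose log2 CPM ran most closely with each IDOL-recognised receptor over the 10 libraries were taken from the 8841 genes with a mean of at least 10 CPM. For Vldlr these were Rad21 (Pearson r = 0.926, Spearman rho = 0.818), Ankmy2 (r = 0.899, rho = 0.903) and Sema4d (r = 0.889, rho = 0.842). For Lrp8 they were Pex14 (r = 0.913, rho = 0.927), Psmd4 (r = 0.913, rho = 0.891) and Cntn1 (r = 0.911, rho = 0.794). The highest values of all searched were chosen, and the points share the libraries and their depth, so these are descriptions of 10 libraries. Among the 28 pairs of members, Vldlr and Lrp1 ran most closely together (r = 0.607, rho = 0.745), then Lrp8 and Lrpap1 (r = 0.596, rho = 0.515), and Vldlr and Lrp4 ran most opposed (r = -0.605, rho = -0.648). All of these correlations pool the 2 groups, so they include any difference between the groups. Lrp8 and Lrpap1 both lay lower in 5XFAD;Neu cKO (log2 fold changes of -0.315 and -0.273). So did Pex14 (-0.269), Psmd4 (-0.256) and Cntn1 (-0.143). Correlations within a group were not computed.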

How the data were processed

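The values deposited by the authors are whole-number counts of reads per gene and library, with no normalization, from QuantSeq 3′ single reads aligned with STAR 2.7.3a to GRCm39 and counted with HTSeq. The submitters' processing notes give HTSeq 0.9.1. The strand setting is not given in the sources used here, so whether reads of overlapping opposite-strand genes were kept apart is not known. Rows that name no gene were left out. Members and gene lists were chosen with earlier results of these data known. Named genes are the 8 members, Mylip, in each list every gene that passed or whose groups did not overlap plus the 2 smallest p, and the 3 genes most like Vldlr and Lrp8.

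The comparison used edgeR 4.0.16 in R 4.3.3 (TMM, group as the only term, glmQLFTest), for genes with more than 10 reads in total, Benjamini-Hochberg over 19268 genes, threshold 0.05. Log2 CPM used a prior count of 2. Alternatives included DESeq2 1.42.0. The fit was also run on simulated counts with planted changes larger than any member difference given here, so that run does not bear on differences of their size. Coding stretches came from the GENCODE annotation of GRCm39. The labels do not state separate litters. The edgeR p-values set the difference between groups against the spread between mice within a group, which is estimated with help from the other genes. The permutation test uses only the 10 values of the gene itself. No 2 libraries of a group agreed within sampling noise (20 pairs).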

Additional observations from a re-analysis of the deposited data

Results flagged for a closer look

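Among the 18 sets of 5 libraries formed by the 8 members and Mylip in each group, 1 held a library far from the rest. Lrp1b in 5XFAD;Neu cKO replicate 1 stood at 156 CPM, apart from the other 4 libraries by 0.854 of the whole range of the group, above the critical value of 0.71. Chance alone gives about 1 such set in 20, so 1 in 18 is close to that number. Without replicate 1 the log2 fold change of Lrp1b was -0.176, against -0.0507 with it.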

How the results depend on the processing

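No member passed the threshold in any of the 17 alternatives. Lrp8 kept a log2 fold change of -0.372 to -0.267 (adjusted p 0.163 to 0.651) and Lrpap1 of -0.317 to -0.236 (0.133 to 0.651). With 1 library left out, Vldlr ran from -0.0228 (without 5XFAD;Neu cKO replicate 1) to 0.0898, turning also without 5XFAD replicate 3 (-0.00167), and Sorl1 from -0.0814 to 0.0489, turning without 5XFAD replicate 4 (0.00119) and without 5XFAD;Neu cKO replicates 2 (0.0489) and 5 (0.0279). Both lie within their standard errors. The genes called over the whole table, 42 in the main fit, were 73 by DESeq2, 103 with no filter on low counts and 112 with the replicate block, and 26 to 72 with 1 library left out (26 without 5XFAD replicate 2, 72 without 5XFAD;Neu cKO replicate 1, 27 without its replicate 4 and 27 without its replicate 5). Of the pathway genes, 1 (Apoe) passed by DESeq2, with the robust fit and with the replicate block, against 0 in the main fit, and 0 to 1 with a library left out (1 without 5XFAD replicate 5). The causes were not tested. The replicate numbers share nothing in the labels. After the group mean of each gene was subtracted from log2 CPM, what remained correlated at -0.078 to 0.054 between same-numbered libraries, over 8841 genes. The block is therefore not taken as a pairing, and under it no member passed. Lrp4 and Mylip have no adjusted p in DESeq2. Lrp4, at 30 to 126 reads per library, varied by 31.8% between libraries against 12.8% from counting, and its log2 fold change went from -0.25 to -0.0232 without 5XFAD replicate 3.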

Other observations

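Lrp8os2, annotated on the strand opposite to Lrp8 within its span (chromosome 4), was chosen after its values were seen. It was counted 0, 1, 0, 1 and 0 times in 5XFAD and 14, 6, 15, 7 and 2 times in 5XFAD;Neu cKO, so that the groups did not overlap. Summed and set per read on genes, 44 counts against 2 gave a ratio of 19.9 (95% interval 5.19 to 169, counting error only). The edgeR fit, which includes the spread between mice, gave a fold of 14.4 with a 95% interval of 1.82 to 114.5 (adjusted p = 0.351). Of all genes tested, 0.576% had groups that did not overlap with 5XFAD;Neu cKO higher. The strand setting is not given, so whether these counts hold only reads from the strand of Lrp8os2 is not known. A second such gene, Lrp8os3, was counted 7 to 19 times in 5XFAD and 5 to 23 times in 5XFAD;Neu cKO.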
